A study of Mus musculus with 2 samples.

Results

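The genes described here encode the subunits, activators, inhibitor and assembly chaperones of the proteasome and the immunoproteasome. Every gene whose symbol began with Psma, Psmb, Psmc, Psmd, Psme, Psmf or Psmg followed by a digit was taken, which gave 50 of the 32285 genes counted. The cells came from mice with an osteoporotic fracture that carried an intramedullary nail, a rod in the marrow cavity of the femur, and they were marrow cells of the femur together with cells that adhered to the nail. There was 1 droplet library for a magnesium nail (Mg nail) and 1 for a nail that the labels name Mg-TAGelMA. GelMA stands for gelatin methacryloyl, which forms a hydrogel. What TA abbreviates is not stated in the labels. The fracture model was thus shared by both groups. The strain, sex and age of the mice, the time after implantation, and how many mice or which mixture of marrow and adherent cells a library held are not given in the sources used here.

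The proteasome is a barrel-shaped protease that degrades ubiquitin-tagged proteins. Its 20S core is built from alpha rings, which gate the barrel, and beta rings, which hold the cutting sites. Psmb5, Psmb6 and Psmb7 encode the constitutive cutting subunits, and interferon gamma induces their replacements Psmb8, Psmb9 and Psmb10, which together make the immunoproteasome and favour peptides that fit MHC class I. The 19S cap, encoded by the Psmc ATPases and most Psmd genes, recognises and unfolds the tagged protein. Psme1 and Psme2 encode the PA28 activator that is also induced by interferon, Psme3 a nuclear form of it, Psme4 the activator PA200, Psmf1 the inhibitor PI31, and the Psmg genes chaperones that assemble the core. In red cell precursors the proteasome is known for clearing proteins before the cell loses its nucleus.

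Cells were gated from their own marker genes into classes, which carry "-like" in their names because they rest on RNA markers alone. After filtering, 8122 cells of the Mg library remained, with a median of 3803.5 unique molecular identifiers (UMIs, counted RNA molecules). From the Mg-TAGelMA nail 7226 cells remained, with a median of 6744. The unfiltered libraries shared 21 cell barcodes, and 19 of these were among the kept cells. The 8 classes with enough cells in both libraries held, in the Mg and then the Mg-TAGelMA library, 166 and 317 early granulocyte-like, 1090 and 1374 immature neutrophil-like, 341 and 1842 mature neutrophil-like, 437 and 715 monocyte-like, 475 and 103 B progenitor-like, 2481 and 1402 B-like, 461 and 285 T-like, and 1004 and 147 erythroid-like cells. The median cell of each class held from 50% to 100% of the markers of its own list, and from 0% to 37.5% of those of the next highest list. The gate was near its lead in 249 of the 475 B progenitor-like cells of the Mg library and 54 of the 103 of the other, so that class is the least sharply bounded. A total of 1351 and 640 cells stayed without a class. Depth went with class and library: the mature neutrophil-like cells of the Mg library summed to only 723390 UMIs, of which 1382 came from the genes described here, against 9744813 and 18722 in the Mg-TAGelMA library. All 50 genes had UMIs in at least 1 library, and 49 passed the low-count filter.

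Upstream sequences of 3 catalytic genes, the immune gene Psmb9 and the constitutive genes Psmb5 and Psmb6, are shown as examples because the comparison of constitutive with immune subunits turns on such genes. They are RefSeq sequences of GRCm38.p6, the assembly of mm10, which listed a start for 42 of the 50 genes (not for Psmb7). Capitals mark a motif found by letter search on both strands in the 250 bases before the start. For Psmb5 only the first 223 of these bases are shown, up to where the gene begins in the GENCODE annotation. Its printed stretch thus ends before the RefSeq start, from which distances are counted.
Psmb9 (chr17:34187331-34187350, minus strand): gcgcagccgctgATTGGaaa
Psmb5 (chr14:54618023-54618245, minus strand): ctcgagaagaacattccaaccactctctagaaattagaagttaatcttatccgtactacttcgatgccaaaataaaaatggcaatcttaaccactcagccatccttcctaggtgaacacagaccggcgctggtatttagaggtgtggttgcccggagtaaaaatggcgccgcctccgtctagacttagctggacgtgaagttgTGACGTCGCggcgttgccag
Psmb6 (chr11:70525107-70525356, plus strand): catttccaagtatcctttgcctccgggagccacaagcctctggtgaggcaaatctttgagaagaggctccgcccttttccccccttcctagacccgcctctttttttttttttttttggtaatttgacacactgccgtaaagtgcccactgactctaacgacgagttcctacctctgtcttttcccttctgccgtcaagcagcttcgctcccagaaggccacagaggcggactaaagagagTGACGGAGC

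The constitutive genes Psmb5 and Psmb6 held TGACNNNGC, the letters of the antioxidant response element used by the proteasome gene regulator encoded by Nfe2l1, at 47 and 9 bases before their starts. Psmc6, Psmd9 and Psmd12 held it too, and it occurred in 10.2% of all 32851 RefSeq promoters. Psmb9 held CCAAT on its opposite strand at 8 bases before its start, as did 33.8% of all promoters and 15 of the 42 genes on either strand. Psmb3, Psmd4 and Psmd9 held the letters of the interferon-stimulated response element, GAAA followed by any 2 bases and a further GAAA (2.98% of all promoters), and Psmb10 held none of these 3 motifs in this window. None of the 3 contains another. Psmb9 lies beside Tap1, which encodes a peptide transporter of the MHC class I pathway. The RefSeq starts of these genes are 225 bases apart on chromosome 17 and point away from each other, and Psmb8 lies on the same chromosome. A letter match is a description and was not tested as a binding site.

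Of the 8 tested classes, erythroid-like cells had the lowest immune share and T-like cells the highest, in both libraries. It is the share of Psmb8, Psmb9 and Psmb10 among the UMIs of all 6 catalytic genes. Capture can differ between genes, so only its differences between classes are read. In erythroid-like cells it was 10.5% of 4908 UMIs in the Mg library (exact Clopper-Pearson 95% interval 9.67 to 11.4) and 18.1% of 2309 UMIs in the Mg-TAGelMA library (16.6 to 19.7). In T-like cells it was 67.3% (65.2 to 69.3) and 66.3% (63.9 to 68.6). Intervals and limits of counts here cover counting error only.

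Between these ends, immature neutrophil-like cells had 36.9% and 42.5% in the Mg and Mg-TAGelMA library, early granulocyte-like cells 42.7% and 49.7%, and B progenitor-like cells 45.7% and 48.9%. Mature neutrophil-like cells had 56.5% and 56.8%, monocyte-like cells 57.4% and 58.0%, and B-like cells 58.6% and 53.7%. Of the 7 pairs of neighbours in this order, the intervals overlapped in 3 in each library. Early granulocyte-like and B progenitor-like cells changed places between the libraries, as did the B-like cells with the mature neutrophil-like and monocyte-like ones. The smaller classes were described by this share alone. Stem and progenitor-like cells (46 and 45) had 54.2% and 56.0%, plasma cell-like cells (57 and 48) 51.1% and 59.9%, and NK-like cells (88 and 45) 64.1% and 60.9%. Plasmacytoid dendritic-like cells (39 and 107) had 64.7% and 62.7%, and conventional dendritic-like cells (24 and 20) 68.8% and 63.9%. Macrophage-like cells were shallow, with medians of 1200 and 995 UMIs, and their shares of 50% and 61.8% had intervals that reached from 37.6 to 62.4 and from 52.6 to 70.4. Every measured class other than the erythroid-like one thus had a share of at least 36.9%.

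**Figure D1:**
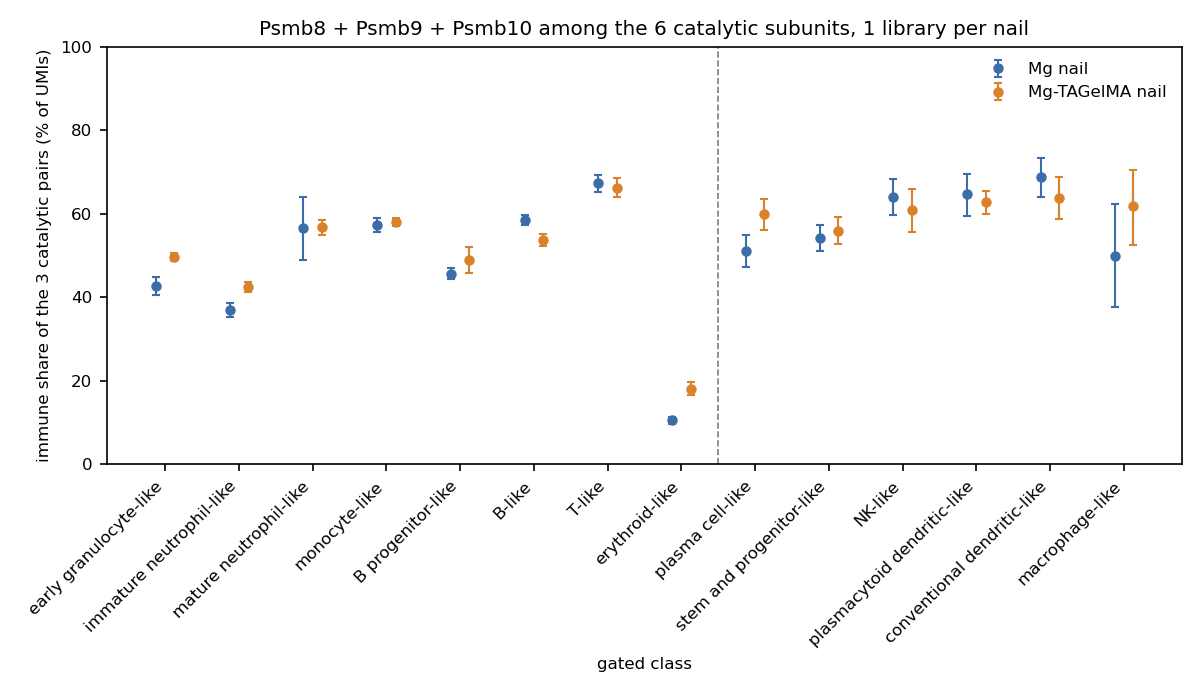
Share of Psmb8, Psmb9 and Psmb10 among the UMIs of the 6 catalytic genes, in percent, for each gated class (horizontal axis) and library (colour), with exact 95% intervals of counting error. Points left of the dashed line are the 8 tested classes, where erythroid-like cells lie at 10.5% and 18.1% and T-like cells at 67.3% and 66.3%.

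In erythroid-like cells all 3 immune genes were lower and all 3 constitutive genes higher than the mean of the other 7 classes. Psmb8 stood at 17.2 CPM (UMIs set to a common total, here with TMM factors) with the Mg nail and 33.9 with the Mg-TAGelMA nail, against 73.7 to 277 and 116 to 259 in the other classes. The erythroid-like values were thus below those of every other tested class, and the log2 fold change was -2.77 (SE 0.33, edgeR adjusted p = 2.7e-06, n = 2 libraries). Psmb9 was at 20.7 and 27.8 TMM-scaled CPM, a log2 fold change of -2.04 (SE 0.30, edgeR adjusted p = 2.6e-05). Psmb10 was at 22.5 and 29.1 TMM-scaled CPM, a log2 fold change of -1.16 (SE 0.25), and its range overlapped that of the neutrophil-like classes. Its edgeR adjusted p was 0.00097, and the call was lost when each cell was thinned to 1000 UMIs (-1.02). The constitutive genes Psmb7, Psmb6 and Psmb5 had log2 fold changes of 0.75, 0.66 and 0.56 there (SE 0.21, 0.20 and 0.21). After the same thinning their values were 0.33, -0.05 and 0.08 and none was called.

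Thinning left out cells under 1000 UMIs, which kept 936 of 1004 and 130 of 147 erythroid-like cells, and weighted the kept cells alike. It moved the erythroid-like share to 19.4% and 27.7%, still the lowest of the 8 classes. In all erythroid-like cells, not thinned, the neutrophil gene S100a8 was at 721 and 4652 CPM, against 76050 and 134276 CPM in immature neutrophil-like cells. The T cell gene Cd3e was at 1.49 and 0.51 CPM there, against 368 and 374 in T-like cells. The part of free RNA in the immune UMIs of these cells was not tested. With a stricter gate the shares were 8.92% and 14.2%.

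The 3 pairs did not move together in neutrophil-like cells. Psmb9 as a share of Psmb6 plus Psmb9 was highest of the 8 tested classes in mature neutrophil-like cells, at 60.0% (46.5 to 72.4) and 66.0% (63.0 to 69.0). The 24 conventional dendritic-like cells of the Mg library had 67.3% of 113 UMIs. Psmb10 as a share of Psmb7 plus Psmb10 was only 28.1% (13.7 to 46.7) and 25.3% (21.7 to 29.3) in the same cells. In monocyte-like cells the order was the opposite, with 45.7% and 44.0% for Psmb9 and 58.0% and 58.6% for Psmb10. The Psmb8 share, Psmb8 over Psmb5 plus Psmb8, was 64.7% and 62.5% in mature neutrophil-like and 64.2% and 66.3% in monocyte-like cells, with intervals that overlapped in the Mg library and, between 62.5% (59.8 to 65.2) and 66.3% (64.9 to 67.7), in the Mg-TAGelMA library. Immature neutrophil-like cells already had the low Psmb10 share, 22.2% and 25.3%, whereas their Psmb9 share of 43.5% and 43.8% was close to that of monocyte-like cells. In the Mg library these mature neutrophil-like shares rest on 60 UMIs for the Psmb9 pair and 32 for the Psmb10 pair, and the interval of the first overlapped that of T-like cells (54.2%, 50.2 to 58.2).

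**Figure D2:**
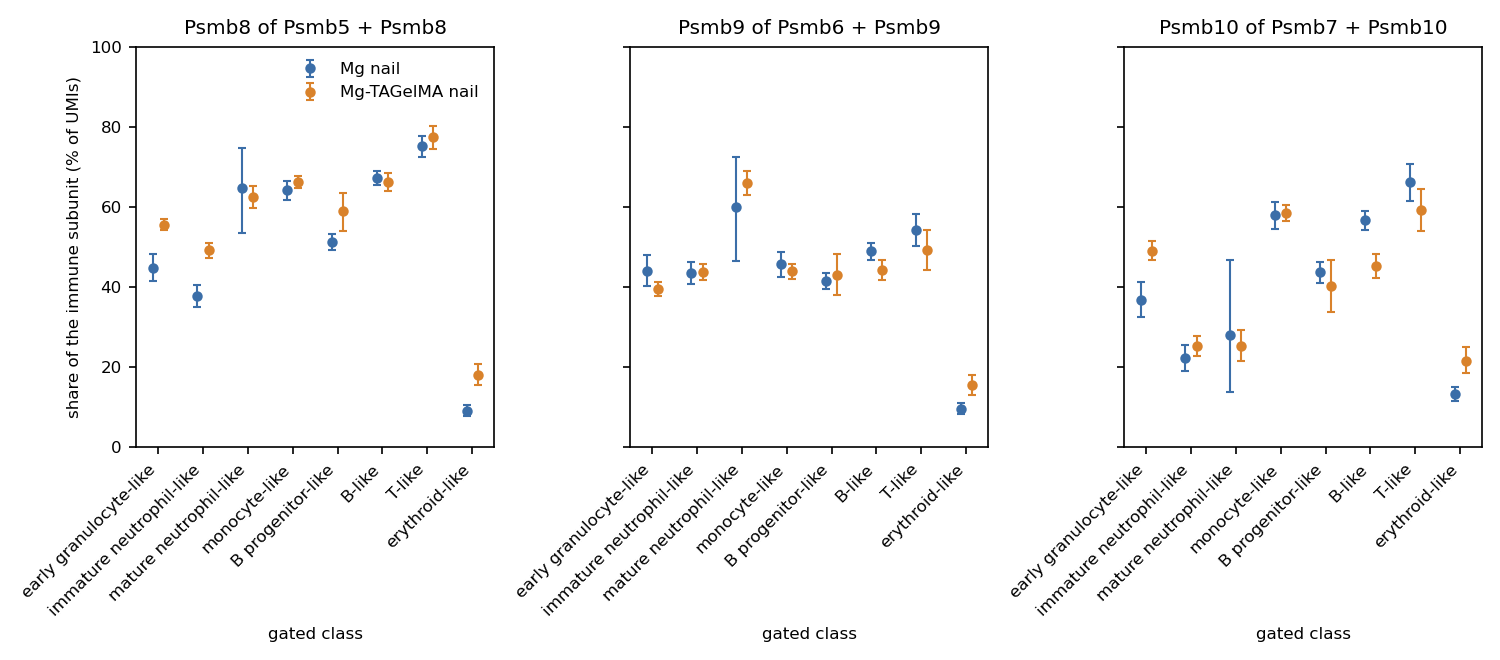
Share of the immune subunit within each catalytic pair, in percent of the UMIs of the pair, by gated class and library, with exact 95% intervals of counting error. Mature neutrophil-like cells lie at 60.0% and 66.0% in the Psmb9 panel and at 28.1% and 25.3% in the Psmb10 panel, and erythroid-like cells are lowest in all 3 panels.

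By level, Psmb8 was high in T-like cells (277 and 233 TMM-scaled CPM in the Mg and Mg-TAGelMA library) and monocyte-like cells (268 and 251). Early granulocyte-like cells were at 158 and 259, the highest class of the Mg-TAGelMA library. B-like cells were at 189 and 132, B progenitor-like cells at 158 and 139.8, mature neutrophil-like cells at 95.3 and 153 and immature neutrophil-like cells at 73.7 and 116. Its order among the upper classes thus differed between the libraries. Psmb10 was highest in monocyte-like cells at 121 and 113 TMM-scaled CPM, followed by T-like cells at 95.4 and 78.2, and stood at 24.3 and 27.3 in immature and 15.6 and 25.02 in mature neutrophil-like cells. The monocyte-like and neutrophil-like levels did not overlap. Of the 3 immune genes Psmb9 had the flattest levels outside erythroid-like cells, from 62.4 to 136 with the Mg nail and from 70.3 to 120 with the Mg-TAGelMA nail, and was called in no contrast but the erythroid-like one.

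The constitutive genes had another order. Psmb5 was highest in early granulocyte-like cells, at 193 and 207 TMM-scaled CPM, and stood at 52.0 and 91.8 in mature neutrophil-like cells. T-like cells held 91.0 and 67.7 and B-like cells 91.8 and 67.3, below erythroid-like cells at 173 and 153. Psmb6 ranged from 41.6 and 61.9 in mature neutrophil-like cells to 194 and 152 in erythroid-like cells, with B progenitor-like cells at 192 and 122.5. With the Mg-TAGelMA nail early granulocyte-like cells reached 158, above the erythroid-like ones. Psmb7 ranged from 39.8 in the mature neutrophil-like cells of the Mg library to 147 in its erythroid-like cells, and in the Mg-TAGelMA library from 53.6 in T-like to 105 in erythroid-like cells.

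**Figure D3:**
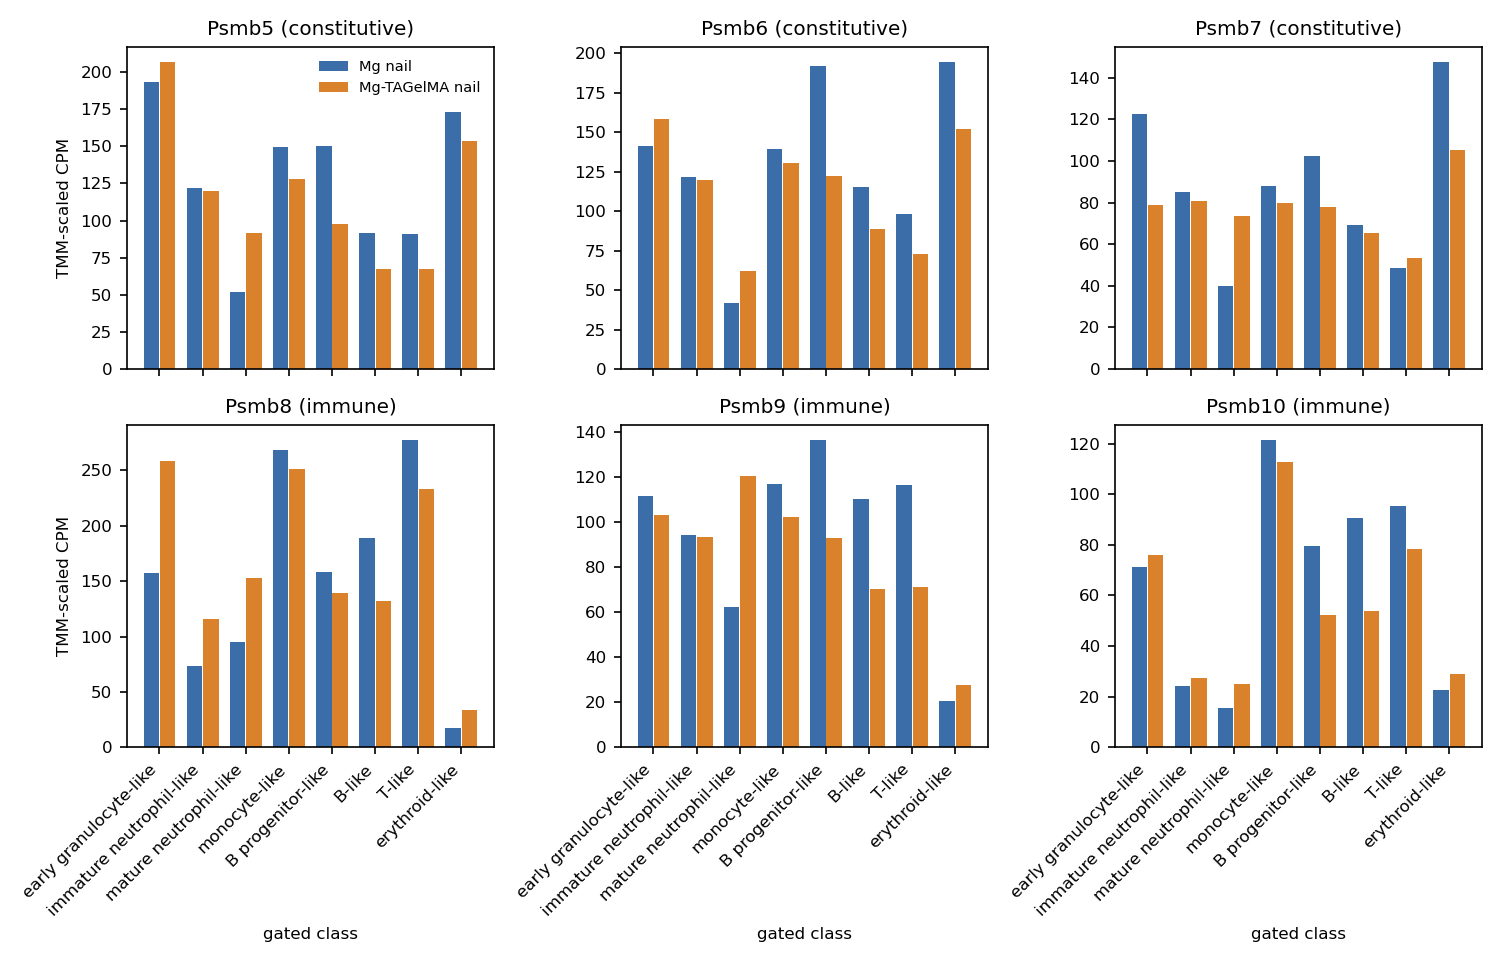
TMM-scaled CPM (bars, vertical axis from 0, scales differ between panels) of the 3 constitutive genes (top) and the 3 immune genes (bottom) in the 8 gated classes of each library (colour), 1 sum of cells per bar. Psmb8 in erythroid-like cells stands at 17.2 and 33.9, and Psmb10 is low in both neutrophil-like classes and highest in monocyte-like cells.

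Across the whole family, erythroid-like cells had 36 of 49 tested genes higher and 4 lower than the mean of the other classes, beside 27.3% and 28.2% of all 14191 genes tested (edgeR quasi-likelihood test, adjusted p under 0.05). The median log2 fold change of the 49 was 0.78, against -0.16 over all genes. The 4 lower genes were the 3 immune subunits and Psme2b, an intronless copy of Psme2. All 6 19S ATPases were higher (median 1.05), 10 of 11 other 19S subunits (median 1.07), all 3 19S assembly chaperones, 3 of 4 core assembly chaperones and 5 of 7 alpha subunits (median 0.72). Of the 4 beta subunits without a cutting site, Psmb2 and Psmb4 passed the test. The class contrasts rest on 2 libraries that are also the 2 nails, nothing says that their cells came from separate animals in any number, and p-values measure only the spread between these sums.

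The inhibitor gene and the chaperone genes Psmd9 and Psmd5 were among the genes with the highest erythroid-like fold changes. Psmf1, the inhibitor PI31, was at 141 TMM-scaled CPM with the Mg nail and 67.0 with the Mg-TAGelMA nail, against 10.4 to 26.6 and 9.97 to 28.5 in the other classes. The log2 fold change was 2.47 (SE 0.20, edgeR adjusted p = 3.1e-08), and the levels did not overlap. Psmd9, an assembly chaperone of the 19S base, was at 164 and 134 TMM-scaled CPM, against at most 32.3 and 41.0 elsewhere, a log2 fold change of 2.47 (SE 0.16). Psmd5, another chaperone of that base, stood at 90.9 and 50.9, a log2 fold change of 1.66. The third 19S chaperone gene, Psmd10, was higher by 0.71. Psmd7, a 19S lid subunit, had a log2 fold change of 1.91 and Psme3, the nuclear activator, one of 1.77 with 193 and 84.6 TMM-scaled CPM. Hba-a1, a haemoglobin gene, took 54709 CPM of the erythroid-like sum in the Mg library and 15941 in the other, where the median cell held 4470 and 18603 UMIs. These cells thus differed in depth and haemoglobin content between the libraries, and the part of this in the levels was not tested. Thinned to 1000 UMIs a cell, 16 of the 48 genes then tested were higher. The share of all genes called under thinning is not given here or below.

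**Figure D4:**
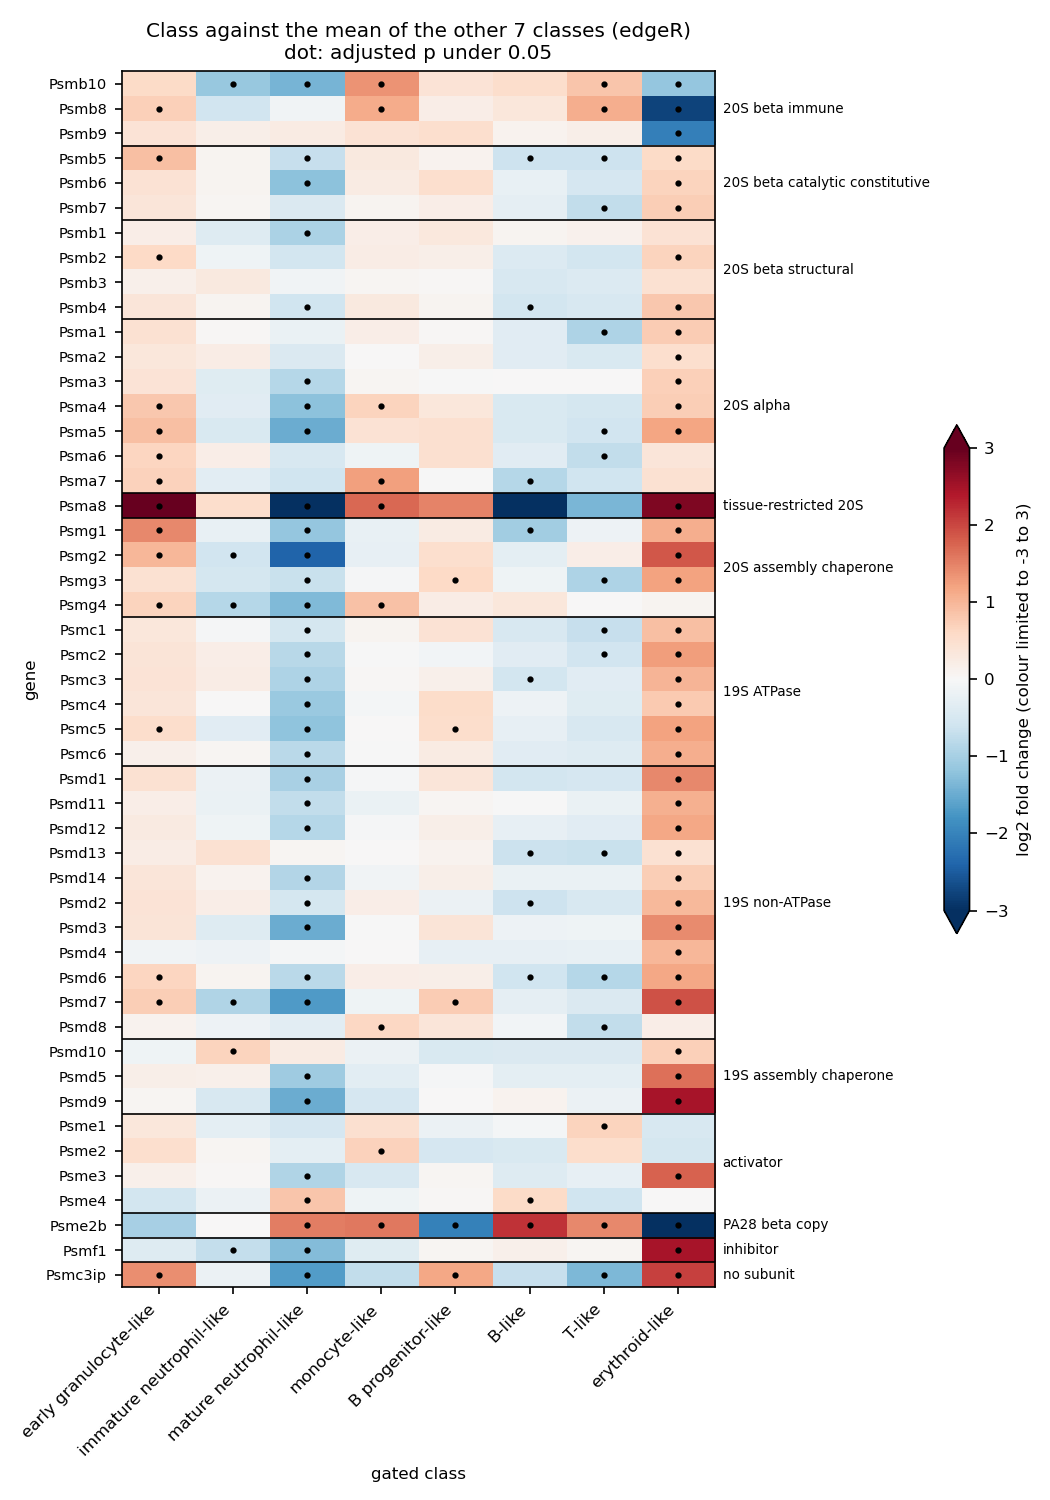
Log2 fold change (colour, limited to -3 to 3) of the 49 tested genes (rows, grouped by role) in each gated class (columns) against the mean of the other 7 classes; dots mark an edgeR adjusted p under 0.05. The erythroid-like column is red except for the immune genes and a few others, with 36 genes called higher, and the mature neutrophil-like column is mostly blue, with 32 called lower.

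Mature neutrophil-like cells had the reverse pattern, with 32 of 49 genes lower and 2 higher, beside 25.7% and 26.8% of all genes. All 6 19S ATPases, 8 of 11 other 19S subunits and all 4 core assembly chaperones were lower, with medians of -0.88, -0.80 and -1.25. Psmg2, an assembly chaperone of the alpha ring, had a log2 fold change of -2.40 (SE 0.30, edgeR adjusted p = 5.1e-06), and the lid subunit Psmd7 one of -1.70. Of the alpha subunits 3 of 7 were lower, with Psma5 at -1.49. Psmb8 (-0.11) and Psmb9 (0.24) were not called, whereas Psmb10 was lower (-1.38, SE 0.28). Of the 3 constitutive catalytic genes 2 were lower (median of the 3 -0.68), and the call of Psmb5 was lost under 3 alternatives. The genes that were higher were Psme4 (0.82) and Psme2b (1.54). Thinned to 1000 UMIs a cell, 19 genes were lower, with no share of all genes given beside them. Psme4 was at 86.6 TMM-scaled CPM in the Mg and 298.5 in the Mg-TAGelMA library. The summed level of the family was 2394 and 3521.5 TMM-scaled CPM here, the lowest of the 8 classes in the Mg library and, after the B-like sum of 3408 and the T-like sum of 3481, the third lowest in the other. It was highest in erythroid-like cells of the Mg library at 7248 and in the early granulocyte-like cells of the Mg-TAGelMA library at 5772.

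The granulocyte stages were compared directly, a contrast added after the values were seen. Mature neutrophil-like cells had 36 of 49 genes lower and 2 higher than early granulocyte-like cells, beside 25% and 25.4% of all genes, with a median log2 difference of -1.003 against -0.02. Psmb6 (-1.46) and Psmb5 (-1.39) were lower and Psmb7 (-0.70) was not called. Among the immune genes Psmb10 was lower (-1.72, SE 0.33), and Psmb8 (-0.72, SE 0.35) and Psmb9 (-0.15, SE 0.34) were not called. All 4 activators were called, with Psme1, Psme2 and Psme3 at -0.76, -0.70 and -0.92 and Psme4 at 1.19. Thinned, 15 genes were lower in this contrast, with no share of all genes given beside them. Whether the immune genes differed from the constitutive ones in their change was not tested beyond these values. Early granulocyte-like cells against all other classes had 15 genes higher and 0 lower (16% and 12.9% of all genes), among them Psmb5 (0.91), Psmb8 (0.72), Psmg1 (1.45), Psmg2 (0.99) and, as the smallest of them, Psmc5 (0.52). Beside the 0 lower by the edgeR adjusted p, 2 were lower at an unadjusted p under 0.05 and 1 with DESeq2. Psmb8 lost its call there under 3 alternatives, among them a comparison without the erythroid-like class (0.34), and thinning left 1 gene called higher. Psmc5 lost its call there under 5 alternatives, among them a looser gate (0.49) and no cell filter (0.50). Immature neutrophil-like cells had 1 gene higher, the chaperone Psmd10 (0.67), and 5 lower (21.6% and 16.2% of all genes), led by Psmb10 (-1.15, SE 0.25). With library totals in place of TMM this count was 0 higher and 23 lower, beside 11.6% and 33.8% of all genes. Psmb8, not called there with TMM, was called lower with library totals (-1.145), after thinning (-0.89) and without the erythroid-like class (-0.99). The early granulocyte-like values of Psmc5 and Psmb8 differed by library, at 0.18 and 0.44 without the Mg-TAGelMA library.

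In monocyte-like cells 9 genes were higher and 0 lower, beside 17.6% and 7.19% of all genes, and the immune genes Psmb8 and Psmb10 were among the 9. Psmb10 had a log2 fold change of 1.34 (SE 0.20, edgeR adjusted p = 7.6e-05) and Psmb8 one of 1.11 (SE 0.23), while Psmb9 (0.44, SE 0.24) was not called. The alpha subunit Psma7 was at 499 and 463 TMM-scaled CPM, above the 113 to 343 and 108 to 389.9 of the other classes, a log2 fold change of 1.24 (SE 0.23). The alpha subunit Psma4 was higher by 0.66, the assembly chaperone Psmg4 by 0.87, the PA28 subunit Psme2 by 0.68 and the lid subunit Psmd8 by 0.63. The Psmd8 call was lost under 4 alternatives, thinning included (0.50). With Leiden clusters in place of the gate 4 were higher and 9 lower, and the calls of Psme2 (0.25) and Psmd8 (0.35) were lost. That fit compared other cells with another reference. It held no early granulocyte-like or mature neutrophil-like class, since each had 1 Mg cell. Its monocyte-like class held 91 Mg and 480 Mg-TAGelMA cells. A cluster with 578 Mg cells and the monocyte markers Fn1, Ccr2 and F13a1 among its top genes stayed without a name. None of the constitutive catalytic genes was called (0.08 to 0.29). Beside the 0 lower by the edgeR adjusted p, 3 were lower at an unadjusted p under 0.05 and 2 with DESeq2.

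In T-like cells 2 of the 3 immune genes were higher and 2 of the 3 constitutive genes were lower. Psmb8 was higher by 1.09 on the log2 scale (SE 0.24, edgeR adjusted p = 0.0019) and Psmb10 by 0.84 (SE 0.21), while Psmb9 (0.17, SE 0.25) was not called. Psme1 was at 272 and 223 TMM-scaled CPM and higher by 0.68 (SE 0.20), and its partner Psme2 missed the threshold (0.53, SE 0.20, edgeR adjusted p = 0.051). Psmb5 fell by 0.63 and Psmb7 fell by 0.73, while Psmb6 (-0.50) was not called. The calls of Psmb5 and Psmb7 were lost under 9 and 4 of the alternatives, thinning included (-0.27 and -0.36), under which 0 genes were lower. The whole count for T-like cells was 4 higher and 12 lower, beside 19.7% and 14.5% of all genes, and with library totals in place of TMM 5 were higher and 4 lower, beside 23.1% and 9.51% of all genes.

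In B-like cells 2 genes were higher and 8 lower (22.7% and 13.1% of all genes). Psme4 (0.57) and Psme2b (2.16) were higher, and the chaperone Psmg1 was lowest at -1.04. The immune genes had log2 fold changes of 0.53 for Psmb10, 0.34 for Psmb8 and 0.11 for Psmb9, none called, and Psmb5 was called at -0.63, a call lost under 8 alternatives. With library totals in place of TMM the counts were 4 higher and 0 lower, where 32.3% of all genes were higher and 7.67% lower and their median log2 fold change moved by 0.30. B progenitor-like cells had 4 genes higher and 1 lower (18.4% and 16.7% of all genes), with the lid subunit Psmd7 at 0.77 and the chaperone Psmg3 at 0.60 among the 4. With library totals these counts were 35 and 1, beside 34.2% and 8.51% of all genes. Against TMM, library totals moved the median log2 fold change of all genes by -0.82 in mature neutrophil-like cells, by -0.53 in immature neutrophil-like cells and by 0.48 in B progenitor-like cells.

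The interferon-responsive activator genes Psme1 and Psme2, on chromosome 14, followed a narrower range than the immune core genes. Psme1 ran from 83.2 TMM-scaled CPM in mature neutrophil-like to 272 in T-like cells of the Mg library, and from 125 in erythroid-like to 228 in early granulocyte-like cells of the other. Psme2 ran from 61.4 in erythroid-like to 149 in monocyte-like cells of the Mg library and from 54.0 in B progenitor-like to 127 in monocyte-like cells of the other. In erythroid-like cells their log2 fold changes of -0.47 (SE 0.22) and -0.52 (SE 0.22) missed the threshold. Psme2 passed it under 6 alternatives, at -0.72 with the stricter gate and -1.01 after thinning, and Psme1 under 3, at -0.61 with the stricter gate.

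Several genes that the naming rule takes are rare or are no subunit. Psma8, a core subunit known from the testis, had 78 and 99 UMIs in all kept cells. In mature neutrophil-like cells it had 0 UMIs in both libraries, which allows up to 4.15 and 0.31 CPM, so its edgeR calls there carry no fold. In early granulocyte-like cells it had 7 and 34 UMIs, and its fitted log2 fold changes of 3.06 there, 2.81 in erythroid-like and 1.73 in monocyte-like cells rest on such counts. In single libraries, on the log2(CPM + 1) scale, which understates the change of rare genes, they were from 0.33 to 1.26. Psmb11, the subunit of the thymic cortex, had 0 UMIs in the Mg library (an upper limit of 0.054 CPM) and 7 in the other and was not tested. Psmc3ip encodes a recombination factor and no subunit, and it was higher in erythroid-like (2.06), early granulocyte-like (1.40) and B progenitor-like cells (1.16, or 0.69 without the Mg library) and lower in T-like (-1.35) and mature neutrophil-like cells, where the Mg library had 0 UMIs. Psme2b was lower in B progenitor-like and erythroid-like cells, where the Mg-TAGelMA library had 0 UMIs, and higher in B-like, monocyte-like (1.58), mature neutrophil-like and T-like cells (1.43). Without the Mg library its value fell to 1.37 in B-like, 0.87 in monocyte-like and 0.56 in T-like cells, and without the Mg-TAGelMA library to 0.99 in mature neutrophil-like cells, as differences of log2(CPM + 1) with no test. As a near-identical copy of Psme2 its counts are uncertain.

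Genes of other strands overlap the immune genes in the annotation: Gm16156 covers 2710 bases of Psmb10, Gm20496 2139 bases of Psmb8 and Tap1 212 bases of Psmb9. The sources used here do not state whether counting used the strand, so reads of these genes could not be told apart from them if it did not.

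Other genes of the pathway were taken from a list of 32 symbols, of which 31 were tested. In erythroid-like cells 12 of the 31 were lower and 5 higher, where 28.2% and 27.3% of all genes were. The lower ones held antigen presentation and interferon signalling genes. The MHC class I genes H2-K1 and H2-D1 fell by 1.60 and 1.72, the peptide transporter genes Tap1 and Tap2 by 1.36 and 1.10, and the interferon gamma receptor gene Ifngr1 by 1.52. The higher ones held the ubiquitin receptor gene Adrm1 (1.02), the deubiquitinase genes Usp14 (1.73) and Uchl5 (0.50), the segregase gene Vcp (0.75) and the chaperone gene Canx (1.14). In T-like cells 11 were higher and 4 lower (19.7% and 14.5% of all genes), with the class I transactivator gene Nlrc5 at 2.61 and H2-K1 at 1.80. Monocyte-like cells had 8 higher (17.6% of all genes), among them the interferon regulatory gene Irf8 (2.13) and Pomp (0.76), which encodes the maturation factor of the core. In mature neutrophil-like cells 12 were higher and 8 lower (26.8% and 25.7% of all genes), with H2-D1 at 1.49, Tap1 at 0.66 and Tap2 at 0.85 higher and the peptide-trimming gene Erap1 at -1.68. Over the 31 genes the median log2 fold change was -0.33 in erythroid-like, -0.15 in T-like, 0.39 in monocyte-like and 0.05 in mature neutrophil-like cells.

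The nails were compared by ratios of the 2 libraries, with no test, since each nail has a single library and the counting software differed with the nail. The size rule asked that the whole exact 95% interval of the CPM ratio lie beyond 2-fold and that the higher library reach 50 CPM. In the sum of all cells 1 of the 40 genes at this level was lower in the Mg-TAGelMA library and 0 higher, beside 7.63% and 18.8% of all genes. That gene was Psme3, at 34.9 CPM against 76.8 in the Mg library, a ratio of 0.455 (0.433 to 0.478). It is highest in erythroid-like cells, of which the Mg library held more. Within the classes its ratio was from 0.547 to 0.874 and passed the rule in none. Where it stays under 50 CPM it could not pass, as in immature neutrophil-like cells, at 26.1 CPM against 40.8 in the Mg library. Its TMM-scaled CPM, averaged over the libraries, was lowest in mature neutrophil-like cells. The part of cell makeup in the ratio of all cells was not tested. The next lowest genes of all cells were Psmd3 (0.528) and Psmd7 (0.532), and the highest were Psmd14 and Psme4 (both 1.74) and Psmb2 (1.12).

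Within classes 4 ratios passed the rule, all higher in the Mg-TAGelMA library and all of genes with long introns. Psmd14, the deubiquitinase of the 19S lid, was at 170 against 55.3 CPM in B-like cells, a ratio of 3.08 (2.77 to 3.42), and at 162 against 57.1 in monocyte-like cells, a ratio of 2.83 (2.45 to 3.28). Psme4 was at 140 against 43.9 CPM in T-like cells, a ratio of 3.20 (2.59 to 3.98), and at 216 against 92.6 in B progenitor-like cells, a ratio of 2.33 (2.01 to 2.70). The B progenitor-like ratio no longer passed under 6 alternatives, among them TMM (log2 ratio 0.93), median-ratio size factors (0.97) and thinning (0.66). After thinning the Psme4 ratio in T-like cells (log2 1.28) and the Psmd14 ratio in monocyte-like cells (1.71) did not pass either. The higher share of all genes was 20.7% in B-like, 15.1% in monocyte-like, 20.2% in T-like and 18.2% in B progenitor-like cells, so 1 gene of 35 to 41 in each is below the background. In early granulocyte-like, immature and mature neutrophil-like and erythroid-like cells no member passed, beside 7.97%, 9.31%, 11.4% and 15.9% of all genes higher and 3.08%, 4.87%, 8.9% and 2.1% lower. No member was lower in B progenitor-like, B-like, T-like or monocyte-like cells either, beside 1.02%, 3.2%, 1.86% and 1.62% of all genes. The annotated introns of Psme4 span 100.25 kb and those of Psmd14 85.9 kb, the longest of the family. Across genes, which are not independent replicates and share the libraries, Spearman's rho of the log2 ratio with intron length was 0.65 in B-like cells (39 genes), 0.52 in T-like cells (35), 0.39 in B progenitor-like cells (41) and 0.28 in monocyte-like cells (37). It was 0.05 in erythroid-like (39), 0.04 in early granulocyte-like (39), 0.05 in immature (29) and 0.07 in mature neutrophil-like cells (19), and -0.03 in the sum of all cells (40). A difference by intron length was not confined to these genes. Over all genes at 50 CPM, the median log2 ratio with at most 8 kb and with more intron was -0.36 and 0.31 in B-like cells. It was -0.24 and 0.44 in T-like, -0.34 and 0.30 in B progenitor-like and -0.12 and 0.27 in monocyte-like cells. In erythroid-like cells it was 0.21 and 0.41, and in early granulocyte-like cells 0.13 and 0.12. Which of the nail and the counting software these ratios follow cannot be told apart.

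**Figure D5:**
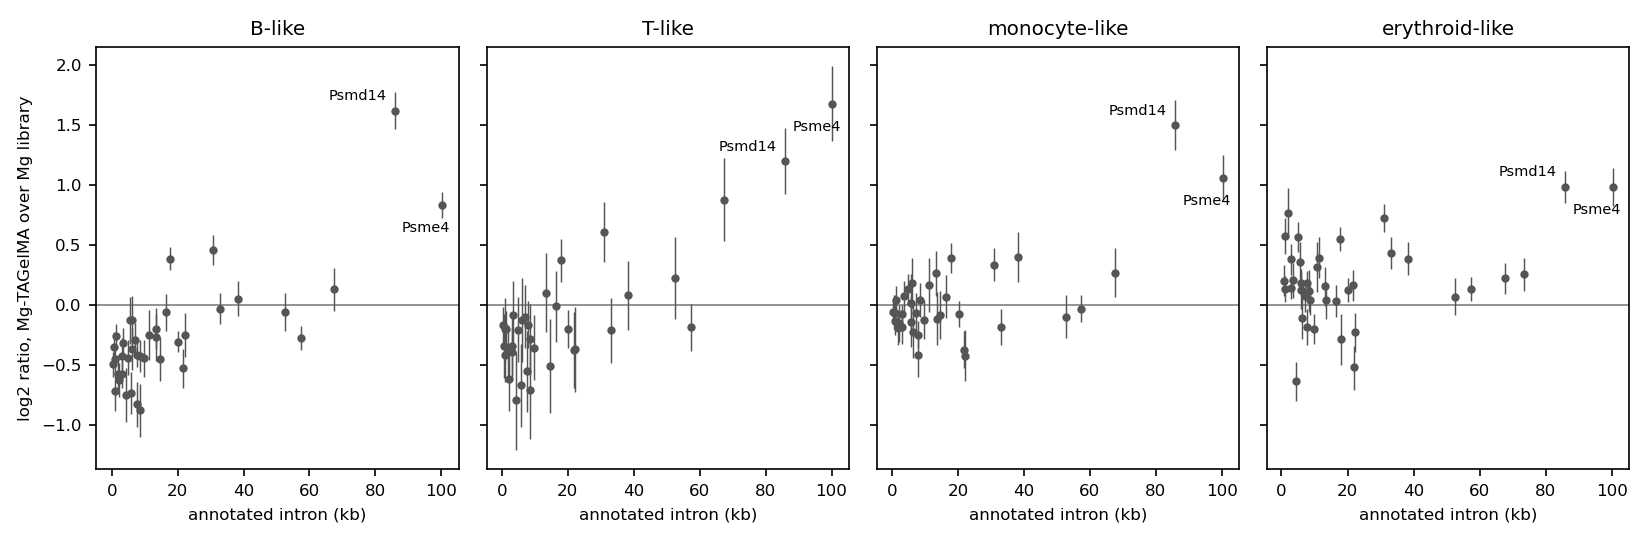
Log2 ratio of CPM, Mg-TAGelMA over Mg library (vertical axis), against the annotated intron length in kb of each gene with at least 50 CPM, in 4 gated classes, with exact 95% intervals of counting error. Psmd14 and Psme4, with 85.9 and 100.25 kb, lie highest in the B-like, T-like and monocyte-like panels.

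None of the catalytic genes passed the size rule. Psmb8, with 0.353 kb of intron, had a ratio from 0.711 in B-like to 1.73 in early granulocyte-like cells, and 2.89 in erythroid-like cells, where it stays under 50 CPM. Psmb9 had 0.648 in B-like and 1.97 in erythroid-like cells, and Psmb10 0.607 and 1.90. The constitutive genes had ratios from 0.679 (Psmb7, early granulocyte-like) to 1.30 (Psmb5, erythroid-like). Psmb7 has 52.6 kb of annotated intron, against 3.0 kb for Psmb5 and 0.62 kb for Psmb6. The part of intron length in the immune shares was not tested.

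By class, the immune share differed between the libraries beyond both intervals in 4 of the 8. It was higher in the Mg-TAGelMA library by 7.59 percentage points in erythroid-like, 6.998 in early granulocyte-like and 5.61 in immature neutrophil-like cells, and in B-like cells it differed by -4.87 points, lower in that library. In B progenitor-like, monocyte-like, mature neutrophil-like and T-like cells it differed by 3.21, 0.61, 0.26 and -0.97 points with overlapping intervals. The median early granulocyte-like cell held 7916 UMIs in the Mg and 32450 in the Mg-TAGelMA library, and after thinning the difference there was -0.12 points. Thinning also turned the B progenitor-like difference to -1.55 and moved the monocyte-like one to 6.65. With Leiden clusters, where only 91 Mg cells were named monocyte-like, the monocyte-like difference was 3.65. A stricter gate gave 9.63 points in early granulocyte-like and 5.30 in erythroid-like cells. Over all kept cells the share was 45.7% and 51.1%, and this sum carries the makeup of the libraries as well. The 3 pairs did not move alike. In early granulocyte-like cells the Psmb8, Psmb9 and Psmb10 pairs differed by 10.7, -4.66 and 12.3 points, Psmb9 with overlapping intervals. In immature neutrophil-like cells only the Psmb8 pair (11.5) differed beyond both intervals. In B-like cells the pairs differed by -1.07, -4.69 and -11.5, the first with overlapping intervals. The B progenitor-like Psmb8 pair differed by 7.63 beyond both.

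Leiden clusters, groups of cells with like expression, divided most classes by library. Clusters named B-like held 1256, 1247 and 499 Mg cells with 4, 10 and 1 of the other library, or 845 and 689 Mg-TAGelMA cells with 0 of the Mg library. The B-like name covers unlike cells: the cluster of 1247 had Rag1, a marker of the B progenitor list, as its top gene, and that of 1256 had Ighd. The 2 biggest immature neutrophil-like clusters held 1230 Mg cells with 2 of the other and 1064 Mg-TAGelMA cells with 0. Named by cluster, only 1 Mg cell was early granulocyte-like and 1 mature neutrophil-like, against 569 and 2002. In 1 erythroid-like cluster the split was 119 and 99. The part of this in the nail differences within gated classes was not tested.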

How the data were processed

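The authors deposited unnormalised UMI counts of each gene in each barcode. Per the file headers, Cell Ranger 5.0.0 counted the Mg nail and version 7.0.1 the Mg-TAGelMA nail. STAR and mm10 are named in the submitters' processing notes, and intron counting, the annotation release and pooling of mice are not given in the sources used here. The deposited 10x 3' libraries held 9466 and 7591 barcodes with 58261391 and 79890998 UMIs. Cells with at least 200 genes and at most 15% mitochondrial UMIs were kept (189 and 22 barcodes had fewer genes, 1091 and 62 more mitochondrial UMIs), and 197 and 297 scrublet doublets (2.37% and 3.95%) were removed.

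Each cell went to the class with the highest percentage of markers above the library mean, among 19 lists of 136 markers, given at least 3 markers and a lead of 10 points. This gate was chosen after the files were seen. The counts of a class were added up within each library and tested with edgeR 4.0.16 (R 4.3.3; quasi-likelihood, TMM, a library term, a class against the mean of the other 7, Benjamini-Hochberg over 14191 genes). An adjusted p under 0.05 was called, and SEs come from the F statistic. The test was also run on counts simulated from its own fit. Such counts cannot show how it behaves when the 2 libraries are also the nails and the counting software. DESeq2 1.42.0, scanpy 1.11.5 and scipy 1.17.1 served the alternatives, clusters and intervals. Introns came from GENCODE vM21, which matched 32235 genes (99.8%).

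The members and lists were chosen with earlier results of these data known. Every member was counted by role. The genes named are the 6 catalytic genes, Psme1, Psme2, the largest and smallest called fold change of each contrast, members with no UMI in a library, members past the size rule and the 3 highest and lowest nail ratios. Others were named after their values were seen. One motif search is not reported here.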

Additional observations from a re-analysis of the deposited data

How the results depend on the processing

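No paired analysis was possible because the labels carry no replicate numbers and each nail has 1 library. This concerns the nails: the class contrasts carry a library term, so classes were compared within libraries. Leaving out a library leaves no residual degrees of freedom, so it gave values with no test. Of the main counts, shares and differences recomputed, 350 values stayed within their limits, 100 moved and 2 reversed. The cause was not tested except where the setting itself tests fewer genes or cells. Counts of called genes below stand beside the share of all genes only for library totals and DESeq2 size factors. For the other settings that share is not given here, so a change among the members cannot be told from one over all genes. The direct contrast of granulocyte stages, and the nail difference of the share with no cell filter or at least 500 genes, were chosen after seeing the data.

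Thinning each cell to 1000 UMIs gave 1 higher gene in early granulocyte-like cells, 0 higher and 3 lower in immature and 19 lower in mature neutrophil-like cells, 1 higher and 0 lower in B progenitor-like, 2 lower in B-like, 0 lower in T-like and 16 higher in erythroid-like cells, and 15 lower in the direct granulocyte contrast. Cells under 1000 UMIs were left out of this setting, so the Mg library kept 141 of 166 early granulocyte-like and 270 of 341 mature neutrophil-like cells. Psmb6 in erythroid-like cells reversed to -0.047. Immune shares became 47.3% and 47.2% in early granulocyte-like, 53.1% and 59.7% in monocyte-like and 19.4% and 27.7% in erythroid-like cells, 48.0% in the B progenitor-like cells of the Mg library and 58.6% in the mature neutrophil-like cells of the Mg-TAGelMA library. The nail difference of the share reversed to -0.12 points in early granulocyte-like and -1.55 in B progenitor-like cells and was 6.65 in monocyte-like cells, and 1 nail ratio within classes was higher.

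Library totals in place of TMM gave 28 higher in early granulocyte-like cells (20.6% of all genes). They gave 0 higher and 23 lower in immature (11.6% and 33.8%) and 1 higher in mature neutrophil-like cells (15.6%). B progenitor-like cells had 35 higher (34.2%), B-like cells 4 higher and 0 lower (32.3% and 7.67%) and T-like cells 4 lower (9.51%). The granulocyte contrast had 1 higher (13.3%). DESeq2 size factors gave 1 lower in early granulocyte-like (13.7% of all genes), 8 lower in immature neutrophil-like (18.0%), 9 higher in B progenitor-like (19.8%) and 1 lower in monocyte-like cells (8.71%). The DESeq2 test gave 1 lower, 2 higher with 10 lower, 10 higher and 2 lower in the same classes, and 16 lower in B-like cells.

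Genes with at most 8 kb of intron leave 23 members to test and gave 4 higher and 1 lower in early granulocyte-like, 2 lower in immature neutrophil-like, 1 higher and 9 lower in mature neutrophil-like, 2 lower in B-like, 4 lower in T-like and 13 higher in erythroid-like cells, 1 higher and 11 lower in the granulocyte contrast, 0 lower nail ratios in all cells, and 1 higher and 1 lower within classes. Without the erythroid-like class there were 23 higher and 1 lower in early granulocyte-like, 2 higher in immature neutrophil-like, 13 higher and 2 lower in B progenitor-like and 4 higher and 3 lower in B-like cells. No filter on low counts gave 3 lower in immature neutrophil-like and 1 higher and 2 lower in B-like cells.

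The stricter gate gave 1 lower in early granulocyte-like, 3 lower in immature neutrophil-like, 6 lower in T-like and 1 lower in monocyte-like cells, with shares in the Mg library of 39.4% in early granulocyte-like and 48.3% in B progenitor-like cells, of 61.4% and 56.4% in B-like and 8.92% and 14.2% in erythroid-like cells of both libraries, and nail differences of 9.63 points in early granulocyte-like and 5.30 in erythroid-like cells. It left 49 B progenitor-like cells in the Mg-TAGelMA library. The looser gate gave 2 higher and 3 lower in immature neutrophil-like cells and an erythroid-like share of 12.4% in the Mg library. Leiden clusters gave 2 higher in immature neutrophil-like, 12 higher in B progenitor-like and 4 higher and 9 lower in monocyte-like cells, shares of 52.0% in early granulocyte-like and 62.1% in monocyte-like cells with the Mg-TAGelMA nail and 11.8% in erythroid-like cells of the Mg library, and a monocyte-like nail difference of 3.65 points. The fit asked for at least 50 cells of a class in each library, so it held no early granulocyte-like or mature neutrophil-like class.

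At least 500 genes a cell gave 2 higher in immature neutrophil-like and 1 higher in B-like cells, no cell filter 2 higher in immature neutrophil-like cells, and kept doublets 7 higher in B progenitor-like cells. A nail bound of 1.5-fold gave 2 higher and 7 lower in all cells and 15 higher and 6 lower within classes, and a minimum of 10 CPM gave 2 lower and 4 lower. TMM, median-ratio size factors, kept doublets, the looser gate and totals without Gm42418 and AY036118 each gave 1 lower within classes.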

Other observations

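Sem1 encodes a small subunit of the 19S lid but carries no Psm symbol, so the naming rule leaves it out. It was higher in mature neutrophil-like cells (log2 fold change 1.45, SE 0.19), immature neutrophil-like cells (1.41, SE 0.18) and early granulocyte-like cells (0.80). It was lower in T-like (-1.37), B-like (-1.26), B progenitor-like (-0.76) and erythroid-like cells (-0.67, SE 0.22), all by the edgeR test, and had the same sign in both libraries in each. In erythroid-like cells 10 of 11 non-ATPase 19S genes with a Psmd symbol were called the other way, and in mature neutrophil-like cells 8 of 11 were. Sem1 was chosen for this after its values were seen.

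Psme2b had 356 UMIs in the B-like cells of the Mg library and 44 in those of the Mg-TAGelMA library, a CPM ratio of 0.143 (0.102 to 0.196). In the other classes with UMIs in both libraries the ratio was from 0.114 to 0.139. The gene lies inside Gm12185 on the same strand, by 837 bases.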
